A study of Mus musculus with 16 samples.

Results

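The Ly6 surface antigens examined here were the products of 5 genes, Ly6a, Ly6c1, Ly6c2, Ly6d and Ly6e, chosen by gene name from the 56748 genes listed in the deposited tables and read in all 16 samples. Ly6 proteins are small, cysteine-rich proteins held at the outer face of the cell membrane by a glycosylphosphatidylinositol (GPI) anchor. In T cells several of them are raised by activation or by interferon, and Ly6C is a common surface marker for dividing memory CD4+ T cells into subsets. Outside T cells, Ly6C marks monocytes, plasma cells and plasmacytoid dendritic cells, Ly6A (Sca-1) marks haematopoietic stem cells and Ly6D marks lymphoid progenitors committed to the B lineage.

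RNA-Seq libraries came from splenic CD4+ T cells sorted as memory cells by surface markers, CD25low/- and CD44high among them. HP1α KO mice, HP1γ KO mice and the WT littermates of either line made up 4 groups of 4 samples. HP1α, encoded by Cbx5, and HP1γ, encoded by Cbx3, are heterochromatin proteins that bind methylated histone H3. In the HP1α line, the floxed allele had been excised with CMV-cre, which acts in every tissue, so that all cells of the KO mice carried the deletion. Mice of the HP1γ line were all homozygous for the floxed allele, and KO mice differed from their WT littermates by the Cd4-cre transgene, so that effects of Cre itself and of HP1γ loss cannot be told apart. Both lines were on a mixed 129/Sv and C57BL/6 background, mice were 6 to 12 weeks old, and the number of animals behind a sample is not given in the labels, so that p-values measure the spread between these samples. Total estimated counts ranged from 26694045 to 40199637 per sample, with a median of 32360727. Markers of T cells were high in every sample (sum of 10 genes, 8054 to 9546 TPM), whereas those of B cells were low (sum of 7 genes, 6.06 to 21.9 TPM). The targeted genes were checked first. Cbx5 averaged 27.1 ± 2.77 CPM in the HP1α KO against 40.3 ± 9.28 CPM in its WT littermates (SD, n = 4 each), without overlap but with adjusted p = 0.946 (edgeR). Cbx3 averaged 47.5 ± 1.97 CPM in the HP1γ KO against 84.5 ± 8.66 CPM in its WT littermates (SD, n = 4 each), also without overlap (adjusted p = 0.00150, edgeR). RNA counts per gene do not measure protein. In naive CD4+ T cells of these lines, the study reports that HP1α was wholly absent and HP1γ almost completely deleted.

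The 5 genes lie together on chromosome 15 of GRCm39, between 74633902 and 74988467, a span of 354.6 kb that holds 13 protein-coding genes and lies 28.1 Mb from Cbx5. In order along the chromosome they are Ly6d (ENSMUSG00000034634, chr15:74633902-74635597), Ly6e (ENSMUSG00000022587, chr15:74826860-74847454), Ly6a (ENSMUSG00000075602, chr15:74863840-74869880), Ly6c1 (ENSMUSG00000079018, chr15:74915847-74920686) and Ly6c2 (ENSMUSG00000022584, chr15:74980003-74988467). Ly6e is on the plus strand and the other 4 are on the minus strand. Sequence identity sets how well their reads can be told apart. The coding sequences of Ly6c1 and Ly6c2 were identical at 97.7% of positions, 384 of 393. Ly6a matched Ly6c1 at 81.8% and Ly6c2 at 81.6% of aligned positions. Of all stretches of 100 nt in the reference transcript, 15.1% in Ly6c1 and 15.4% in Ly6c2 also occurred in a transcript of another gene, against 7.54% in Ly6a and 0% in Ly6d and Ly6e. The deposited counts of Ly6c1 and Ly6c2 were not whole (more than 0.01 from a whole number) in all 16 samples and those of Ly6a in 14, whereas those of Ly6d and Ly6e were whole in all 16, so that reads were shared out between genes by the authors' quantification for the first 3 genes and values of Ly6c1 and Ly6c2 are uncertain to that extent.

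The stretch of 60 nt of the coding sequence in which the Ly6c paralogs differ most shows part of what separates them. It covers positions 6 to 65 of the coding sequence, in the first coding exon, at chr15:74920296-74920355 in Ly6c1 (exon 1 of 3) and chr15:74983452-74983511 in Ly6c2 (exon 2 of 4) of GRCm39, minus strand, read 5′ to 3′. Capitals mark the 6 positions at which the paralogs differ.
Ly6c1: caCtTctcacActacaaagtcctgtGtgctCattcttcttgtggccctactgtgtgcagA
Ly6c2: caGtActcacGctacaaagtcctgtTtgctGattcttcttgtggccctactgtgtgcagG
Between these positions the paralogs share runs of identical bases, and a read is assigned to one of them only by the few bases in capitals or by differences elsewhere in the transcript.

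Levels differed widely among the 5 genes. In TPM, which is corrected for transcript length and can be compared between genes, the mean over the 16 samples was 1296 for Ly6e, 255 for Ly6a, 199 for Ly6c2, 33.2 for Ly6d and 19.5 for Ly6c1. Ly6e, a thymocyte and T cell antigen that also limits the entry of several viruses, ranked 130 among all genes by mean TPM. Ly6e was above Ly6a in all 16 samples, by 3.80 to 6.77 times. Ly6a was above Ly6c2 in 14 of 16 samples and the ranges of these genes overlapped. Ly6d was above Ly6c1 in only 9 of 16 samples, so that the order of these lowest members is not fixed beyond their spread. Of the 43 genes listed for the Ly6/uPAR family, 42 were in the tables, 16 were at 0 in every sample and 10 had a mean of at least 1 TPM. The members examined here made up 97.3% to 98.7% of the family's summed TPM, and Ly6e alone 63.9% to 74.5%. The other 5 were Plaur, the urokinase receptor (mean 13.5 TPM), Ly6g5b (9.52 TPM), Lypd6b (4.91 TPM), Ly6k (2.56 TPM) and Lynx1 (1.02 TPM). Ly6g, the neutrophil antigen, was between 0 and 0.460 TPM.

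**Figure D1:**
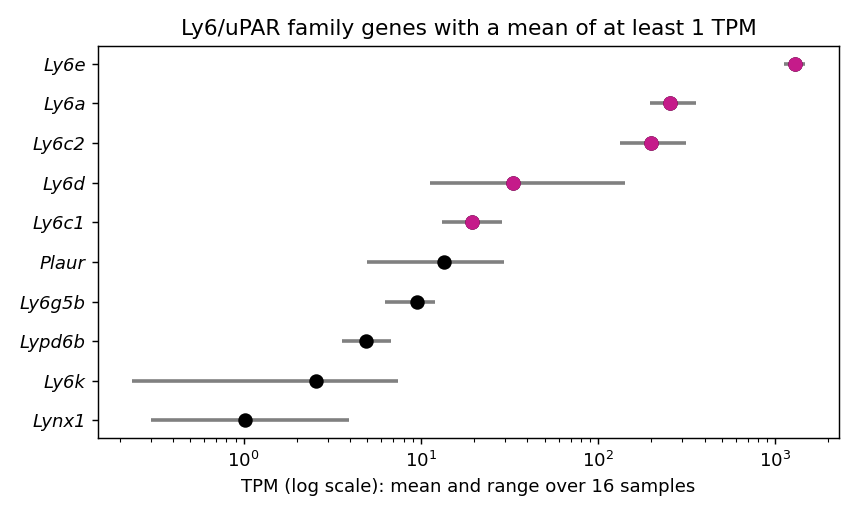
Mean TPM (points, log axis) and the range from the lowest to the highest of the 16 samples (lines) of the 10 Ly6/uPAR family genes averaging 1 TPM or more, members in magenta and other genes in black. Ly6e lies apart at 1296 TPM, and the ranges of Ly6a and Ly6c2 overlap, as do those of Ly6d and Ly6c1.

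Variation between samples was as uneven as the levels. The highest sample exceeded the lowest by 1.31 times in CPM for Ly6e, 1.84 times for Ly6a, 2.14 times for Ly6c1, 2.23 times for Ly6c2 and 12.4 times for Ly6d. Spread within groups was smallest for Ly6e in the WT samples of the HP1α line (coefficient of variation 2.36%) and largest for Ly6d in HP1γ KO (76.3%).

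**Figure D2:**
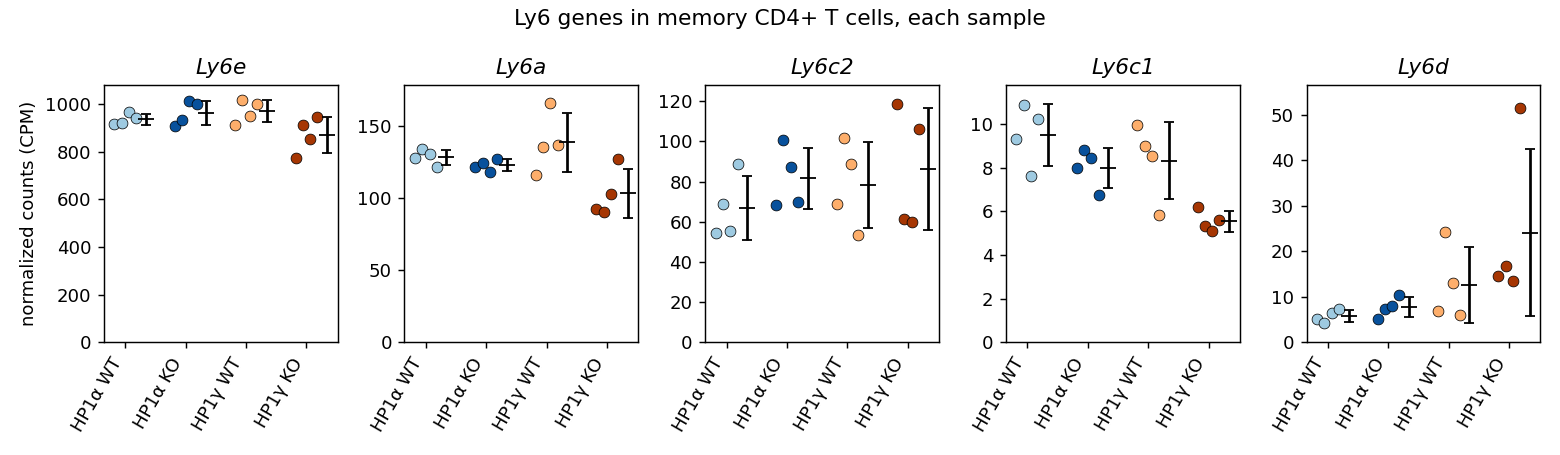
Normalized counts (CPM) of the 5 genes in each sample, by group, with the mean and SD of the 4 samples beside the points. Ly6a, Ly6c1 and Ly6e each have 3 of the 4 HP1γ KO samples below every WT sample of that line, and 1 HP1γ KO sample stands far above all others in Ly6d, at 51.5 CPM.

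Each KO group was compared with the WT littermates of its line, to ask whether the loss of either HP1 protein changed these antigens in memory cells. A gene was called at an adjusted p under 0.05 with an absolute log2 fold change above 1, by edgeR's quasi-likelihood test on all genes. None of the 5 genes was called in either line. In HP1α KO, 0% of the 14881 genes tested were called, 0% had an adjusted p under 0.05 and 4.27% had an unadjusted p under 0.05, the last without any of the 5. In HP1γ KO, 0.234% of 14975 genes were called, 0.327% had an adjusted p under 0.05 and 11.9% an unadjusted p under 0.05, including Ly6a and Ly6c1. DESeq2 and limma also called none of the 5 in either line, and under DESeq2 the unadjusted p was under 0.05 for 0 of 5 in HP1α KO and 2 of 5 in HP1γ KO. KO and WT samples overlapped for each of the 5 genes in both lines, against no overlap in 2.96% of all genes tested in the HP1α line and 7.1% in the HP1γ line.

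Ly6e was nearly level across groups. Its values were 908, 932, 1011 and 1001 CPM in HP1α KO and 918, 921, 965 and 941 CPM in the WT samples of that line. In the HP1γ line it was 775, 911, 851 and 945 CPM in KO and 913, 1017, 952 and 999 CPM in WT. In the HP1γ line 3 of 4 KO samples were below every WT sample in CPM, whereas KO and WT values were interleaved in the HP1α line. In TPM only HP1γ KO replicate 1 (1120) was below the lowest WT sample of that line (1149). The log2 fold change was 0.04 (SE 0.0502, adjusted p = 0.953, edgeR) in HP1α KO and -0.15 (SE 0.0733, unadjusted p = 0.0718, adjusted p = 0.464) in HP1γ KO. Over other settings on all samples the latter ranged from -0.16 to -0.07, with adjusted p from 0.230 to 0.823. The median absolute log2 fold change of all genes tested was 0.0902 in the HP1α line and 0.126 in the HP1γ line.

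Ly6a encodes Sca-1, an antigen that T cells raise on activation and under interferon. It was 121, 125, 118 and 127 CPM in HP1α KO and 128, 134, 130 and 121 CPM in the WT samples of that line. In HP1γ KO it was 92.6, 90.1, 103 and 127 CPM, against 116, 136, 166 and 137 CPM in WT. The first 3 HP1γ KO samples lay below every WT sample and the fourth lay within the WT range. The log2 fold change was -0.06 (SE 0.0519, adjusted p = 0.946, edgeR) in HP1α KO and -0.42 (SE 0.131, unadjusted p = 0.00940, adjusted p = 0.305) in HP1γ KO. In the HP1γ comparison the adjusted p of Ly6a ranged from 0.0847 to 0.464 over other settings on all samples and from 0.138 to 0.588 when 1 sample was left out.

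Ly6c1 and Ly6c2 encode the closely related Ly6C antigens. Ly6c1 was 7.98, 8.81, 8.44 and 6.74 CPM in HP1α KO and 9.31, 10.9, 7.64 and 10.3 CPM in the WT samples of that line. It was 6.21, 5.31, 5.09 and 5.59 CPM in HP1γ KO and 9.95, 9.02, 8.53 and 5.83 CPM in WT. The SD was smallest in HP1γ KO, at 0.487 CPM, and 3 of these 4 samples were below every WT sample. The log2 fold change of Ly6c1 was -0.26 (SE 0.135, adjusted p = 0.946, edgeR) in HP1α KO and -0.58 (SE 0.167, unadjusted p = 0.00585, adjusted p = 0.252) in HP1γ KO. For the latter, the adjusted p of Ly6c1 ranged from 0.0696 (DESeq2) to 0.318 over other settings on all samples and from 0.0805 to 0.520 when 1 sample was left out.

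Ly6c2, the more abundant paralog, varied more among samples of a group. It was 68.3, 101, 87.4 and 69.97 CPM in HP1α KO and 54.2, 68.9, 55.4 and 88.9 CPM in the WT samples of that line. In HP1γ KO it was 119, 61.2, 59.9 and 106 CPM, and in WT 68.6, 102, 88.9 and 53.3 CPM. HP1γ KO samples thus fell into a high and a low pair, with the WT samples between 53.3 and 102 CPM. The log2 fold change of Ly6c2 was 0.29 (SE 0.173, adjusted p = 0.946, edgeR) in HP1α KO and 0.15 (SE 0.257, adjusted p = 0.847) in HP1γ KO. The latter lost its sign when 1 sample was left out, with -0.04 without HP1γ KO replicate 1 and -0.003 without HP1γ WT replicate 4. With both paralogs summed, which removes the division of reads between them, the log2 fold change was 0.23 in HP1α KO and 0.10 in HP1γ KO.

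Other cells that carry Ly6C were looked for by their markers. HP1γ KO replicate 1, the highest in Ly6c2, also had the highest granulocyte genes S100a8 (34.7 TPM) and S100a9 (90.7 TPM). The summed granulocyte markers (5 genes) ranged from 0.290 to 141 TPM in HP1γ KO and from 0 to 38.3 TPM in WT. HP1γ KO replicate 4, the other high sample in Ly6c2, had S100a8 at 0.502 and S100a9 at 0 TPM, and the highest plasmacytoid dendritic cell markers of all samples, described with Ly6d. HP1γ KO replicate 2, of the low pair, had S100a9 at 19.4 TPM and Siglech, a marker of the latter cells, at 36.1 TPM. Of other samples high in Ly6c2, HP1γ WT replicate 2 had S100a9 at 22.3 and Siglech at 43.5 TPM. HP1α KO replicate 2 had them at 0.699 and 13.9 TPM. Summed monocyte and macrophage markers (7 genes) ranged from 51.1 to 78.0 TPM in HP1γ KO and from 48.9 to 70.7 TPM in WT. Among these, Lyz2 was 19.5 to 103 TPM, Csf1r 2.21 to 10.3 TPM and Fcgr1 at most 0.262 TPM over the 16 samples. Each was highest in HP1α KO replicate 3. Cd14 (4.18 TPM) and Itgam (2.61 TPM) were highest in HP1γ KO replicate 1, and Adgre1 (2.37 TPM) in HP1α KO replicate 4. Ccr2 was 12.8 to 21.9 TPM in HP1γ KO and 23.2 to 28.3 TPM in WT of that line. Summed plasma cell markers (4 genes) ranged from 153.5 to 175 TPM in HP1γ KO and from 106.7 to 153.1 TPM in WT. Neither these sums nor Ccr2 overlapped between KO and WT, the sums by a narrow margin. In CPM, 7.1% of all genes tested in this line did not overlap. Most of the sum was Irf4, which activated T cells also express, whereas Jchain was 6.77 to 21.1 TPM in KO and 4.72 to 14.8 TPM in WT. The part of these cells in the Ly6c2 values was not tested. In bulk samples, fewer cells of a type and less RNA per cell cannot be told apart.

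The balance between the Ly6c paralogs was compared as the ratio of their TPM, a measure chosen after the values had been seen. Ly6c2 exceeded Ly6c1 by 7.94, 11.3, 11.4 and 9.72 times in HP1α KO and by 6.07, 6.06, 8.25 and 9.51 times in the WT samples of that line. In HP1γ KO the ratios were 20.4, 12.5, 11.6 and 19.7, and in WT 7.30, 11.4, 9.92 and 9.61. All 4 HP1γ KO samples were above the WT samples, the closest by 11.6 against 11.4. Among single genes of this line 7.1% did not overlap, a share not known for ratios. The highest ratios, 20.4 and 19.7, were those of replicates 1 and 4, also the highest in Ly6c2. The ratio depends on how reads shared by the paralogs were divided. The group means were 16.1 ± 4.66 in HP1γ KO and 9.55 ± 1.68 in WT (SD, n = 4), with p = 0.0286 in an exact permutation test, two-sided, the smallest that 4 against 4 allow. Adjusted over the 3 comparisons made this p was 0.0857, which does not pass. In the HP1α line the means were 10.1 ± 1.65 in KO and 7.47 ± 1.70 in WT (SD, n = 4, exact permutation p = 0.114, two-sided).

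**Figure D3:**
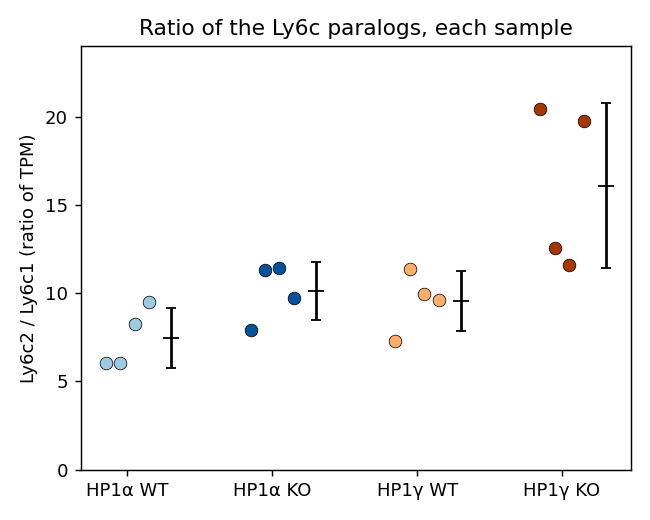
Ratio of Ly6c2 to Ly6c1 TPM in each sample, by group, with the mean and SD of the 4 samples beside the points. The HP1γ KO samples lie between 11.6 and 20.4, and the WT samples of that line between 7.30 and 11.4.

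Ly6d had the widest spread. It was 5.10, 7.22, 8.001 and 10.5 CPM in HP1α KO and 5.09, 4.16, 6.42 and 7.26 CPM in the WT samples of that line. In HP1γ KO it was 14.5, 16.7, 13.5 and 51.5 CPM, and in WT 6.84, 24.1, 13.03 and 5.98 CPM. A single HP1γ KO sample, replicate 4, was above all others, and WT replicate 2 was above the other 3 HP1γ KO samples. The log2 fold change was 0.43 (SE 0.231, adjusted p = 0.946, edgeR) in HP1α KO and 0.95 (SE 0.526, unadjusted p = 0.0991, adjusted p = 0.496) in HP1γ KO. Without HP1γ KO replicate 4 the latter was 0.25 (adjusted p = 0.816), and without HP1γ WT replicate 2 it was 1.49 (adjusted p = 0.442). In the HP1α line it was 0.24 without HP1α KO replicate 4.

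Markers of plasmacytoid dendritic cells, interferon-producing cells of the spleen that express Ly6D, moved with Ly6d across samples. Siglech, a surface receptor of these cells, was 24.5 to 109 TPM in HP1γ KO, with 109 TPM in replicate 4, in which Ly6d was 141 TPM. In WT replicate 2 of the same line Siglech was 43.5 TPM and Ly6d 61.5 TPM. These samples were the highest in both genes. Among samples lower in Ly6d the order was less alike, and HP1α KO replicate 3, with Ly6d at 19.5 TPM, had the lowest Siglech of all, 9.25 TPM. Over the 16 samples Ly6d ranged 12.5-fold in TPM and Siglech 11.8-fold, whereas the ratio of Ly6d to Siglech ranged 2.16-fold, from 0.977 to 2.11. The sum of the 4 markers ranged from 27.2 to 50.4 TPM in HP1α KO, from 32.8 to 45.3 TPM in WT of that line, from 60.8 to 221 TPM in HP1γ KO and from 32.4 to 101 TPM in WT of that line, and no marker was at 0 in any sample. Pearson's r with Ly6d in log2 CPM was 0.96 for Siglech, 0.94 for the transcription factor Tcf4, 0.92 for Klk1 and 0.63 for Ccr9, a chemokine receptor that T cells also use. These values describe 16 samples, in each of which both genes come from the same library and depth. Between groups the markers did not pass the adjustment, with log2 fold changes of 1.00 for Siglech (adjusted p = 0.509), 0.78 for Tcf4 (adjusted p = 0.454), 1.12 for Klk1 (adjusted p = 0.417) and 0.12 for Ccr9 (adjusted p = 0.904) in HP1γ KO against WT by edgeR. In HP1α KO, where the log2 fold change of Ly6d was 0.43, those of the markers were 0.08 for Siglech, -0.08 for Ccr9, -0.14 for Tcf4 and -0.16 for Klk1, with adjusted p between 0.946 and 0.973. The part of these cells in the Ly6d values was not tested.

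**Figure D4:**
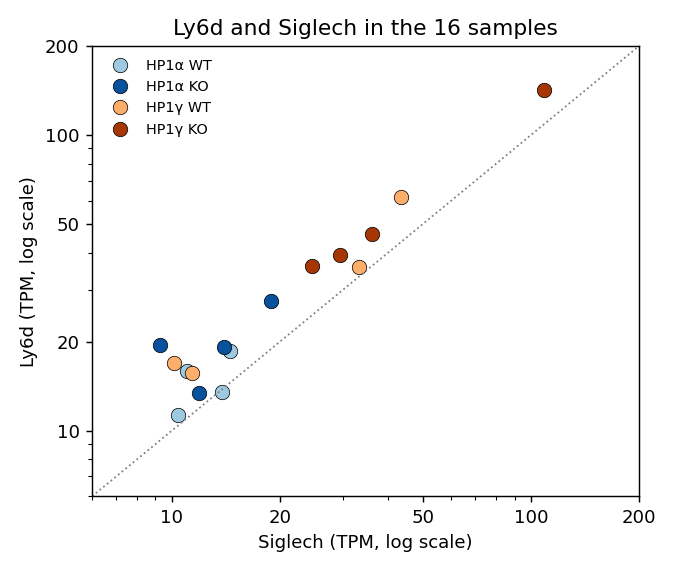
Ly6d against Siglech in the 16 samples, both in TPM on log axes, coloured by group, with a dotted line where the genes are equal. The points run along the line from about equal values near the lowest Ly6d level of 11.3 TPM to HP1γ KO replicate 4 at 141 TPM of Ly6d and 109 TPM of Siglech.

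The genes whose log2 CPM was most like that of each member were sought among 13197 genes averaging 1 TPM or more. For Ly6d they were Mpeg1 (r = 0.98 over 16 samples), which encodes a pore-forming protein of phagocytes, Pld4 (0.98), an endolysosomal nuclease of dendritic cells and B cells, and Csf2rb2 (0.97), a cytokine receptor chain. For Ly6a they were Nkg7 (0.85), a gene of cytotoxic granules, Pigp (0.84), an enzyme subunit of GPI anchor synthesis, and Rtl6 (0.82). Those of Ly6e were Fuca1 (0.87), a lysosomal fucosidase, Dpcd (0.86) and Cenpx (0.83), and those of Ly6c1 were Paics (0.85), an enzyme of purine synthesis, Rn7s2 (0.85) and Gm11518 (0.85). On this measure Ly6c2 had the least close neighbours, Hebp1 (0.79), Trbj2-7 (0.73) and ENSMUSG00000120051 (0.73). After removal of the group means, r was 0.54, 0.58 and 0.46 for the neighbours of Ly6c1 and 0.77, 0.71 and 0.74 for those of Ly6c2. For the neighbours of the other members it was 0.67 to 0.98. The genes were picked by the highest r of many over the 16 samples, and all r are given without a test.

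Members were also compared with each other after removal of the group means, over 16 samples and 10 pairs. Ly6c1 and Ly6c2, which share reads, had the highest correlation over all 16 samples in log2 CPM, with r = 0.66 (permutation p = 0.00794, adjusted 0.0794) and rho = 0.72 (permutation p = 0.00563, adjusted 0.0563), and r = 0.56 without the 2 samples farthest from the median of Ly6c1. Ly6d and Ly6e followed, with r = 0.63 (permutation p = 0.0475, adjusted 0.213), rho = 0.61 (permutation p = 0.0315, adjusted 0.157) and r = 0.43 without the 2 farthest samples. Ly6a and Ly6c1 had an r of -0.18 (permutation p = 0.592, adjusted 0.741; rho = -0.27, permutation p = 0.359, adjusted 0.598) and -0.41 without the 2 farthest samples. Ly6c2 and Ly6d had an r of 0.56 (permutation p = 0.0803, adjusted 0.213) and rho = 0.54 (permutation p = 0.0688, adjusted 0.229), and without the 2 farthest samples their r of 0.72 was the highest of the 10 pairs. None of the 10 pairs passed the adjustment.

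The WT groups of the lines, which serve as controls above and are shared by these comparisons, were set against each other to show how much the members differ without any KO. Of 14804 genes tested, 1.9% were called between them, 12.8% had an adjusted p under 0.05, 29.9% an unadjusted p under 0.05 and 19.5% did not overlap, and none of the 5 genes was called or without overlap (0 of 5 also by DESeq2 and limma). Ly6d, which had an unadjusted p under 0.05, was 5.73 ± 1.38 CPM in the HP1α line and 12.5 ± 8.37 CPM in the HP1γ line (SD, n = 4). Its log2 fold change, HP1α WT against HP1γ WT, was -1.13 (SE 0.398, unadjusted p = 0.0163, adjusted p = 0.0848, edgeR). It was called when HP1γ WT replicate 4 was left out (-1.36, adjusted p = 0.0359) and shrank to -0.59 (adjusted p = 0.246) without HP1γ WT replicate 2, the sample rich in plasmacytoid dendritic cell markers. The same log2 fold change was -0.76 for Tcf4 (adjusted p = 0.0648) and -0.99 for Siglech (adjusted p = 0.146), neither past the threshold. The other 4 members had log2 fold changes of -0.11 for Ly6a, 0.19 for Ly6c1, -0.23 for Ly6c2 and -0.05 for Ly6e, with adjusted p between 0.481 and 0.607 by edgeR and a median absolute log2 fold change of 0.200 over all genes.

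**Figure D5:**
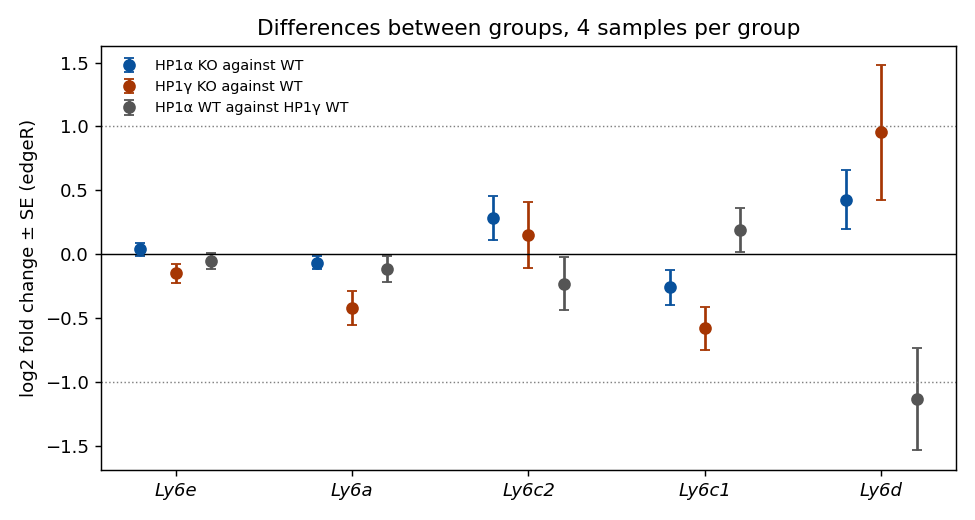
Log2 fold changes with SE from edgeR for the 5 genes in the comparisons of KO with WT in each line and of the WT groups, 4 samples per group. Dotted lines mark an absolute log2 fold change of 1, which only Ly6d between the WT groups exceeds, at -1.13.

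Whether the effect of KO differed between the lines was tested as an interaction over all 16 samples. No member passed, against 0.0317% of 15776 genes called, 0.0507% with an adjusted p under 0.05 and 9.58% with an unadjusted p under 0.05, the last including Ly6a and Ly6e. The HP1α effect minus the HP1γ effect was 0.36 on the log2 scale for Ly6a (SE 0.148, unadjusted p = 0.0266, adjusted p = 0.462, edgeR) and 0.20 for Ly6e (SE 0.0874, unadjusted p = 0.0383, adjusted p = 0.491). It was 0.33 for Ly6c1 (adjusted p = 0.675), 0.14 for Ly6c2 (adjusted p = 0.937) and -0.51 for Ly6d (adjusted p = 0.868), and the difference for Ly6d was 0.18 without HP1γ KO replicate 4. DESeq2 and limma called 0 of 5, and DESeq2 gave 2 of 5 and limma 0 of 5 an unadjusted p under 0.05.

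Genes linked to the Ly6 antigens by family, anchor, interferon or use as subset markers were counted by list. In the Ly6/uPAR family 11 genes were tested in the HP1α line and 12 in the HP1γ line, and 0 were called in both. The family's median log2 fold change was 0.18 in HP1α KO and 0.003 in HP1γ KO, beside 0.003 and 0.0005 for all genes tested. Outside the members, Ly6k, a testis antigen of the cluster, averaged 1.62 CPM in HP1γ KO and 0.454 CPM in WT (log2 fold change 1.82, unadjusted p = 0.00384, adjusted p = 0.221, edgeR). Lypd3 was the family gene called between the WT groups, at 0.185 CPM in the HP1α line and 0.610 CPM in the HP1γ line (log2 fold change -1.68, adjusted p = 0.0312). Its highest estimated count in any sample was 29, and it did not pass the filter on low counts in the HP1α line. It thus entered the comparison of the WT groups through the samples of the HP1γ line, where it is higher. The call rests on few reads and on this selection, and is not taken as a difference. It was 1 of 12 family genes tested there, beside 1.9% of all genes called.

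Every member is held at the membrane by a GPI anchor, and the genes that build and attach this anchor were counted next. Of 29 tested, 0 were called in either line, with median log2 fold changes of 0.007 in HP1α KO and -0.05 in HP1γ KO. At an unadjusted p under 0.05 stood 1 gene with higher values in HP1α KO, Pigq (0.13), and in HP1γ KO 3 with higher values, Pgap1 (0.40), Pign (0.24) and Dpm1 (0.22), and 2 with lower, Pigp (-0.31) and Pigx (-0.23). An adjusted p under 0.05 was reached between the WT groups by 3 of the 29, a share no greater than the 12.8% of all genes, all higher in the HP1α line, namely Arv1 (log2 fold change 0.56, adjusted p = 0.0335), Pigw (0.88, adjusted p = 0.0355) and Pigv, a mannosyltransferase (0.42, adjusted p = 0.0380). Of 15 other GPI-anchored proteins of lymphocytes, 0 were called in either line, and their median was 0.01 in HP1α KO and -0.14 in HP1γ KO. An unadjusted p under 0.05 was reached in HP1γ KO by 3 with higher and 5 with lower values, 8 of 15, beside 11.9% of all genes. The smallest were those of Art2a, an ecto-ADP-ribosyltransferase (3.08 CPM in KO and 7.01 CPM in WT, log2 fold change -1.18, adjusted p = 0.0946), and Thy1, the pan-T cell antigen (840 and 1020 CPM, -0.27, adjusted p = 0.218), and Gfra1, a neurotrophic factor receptor (1.34 and 0.400 CPM, 1.74, adjusted p = 0.226). Between the WT groups Cd48 alone of these 15 had an adjusted p under 0.05 (112 CPM in the HP1α line and 87.2 CPM in the HP1γ line, log2 fold change 0.36, adjusted p = 0.0303).

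Interferon raises Ly6a, Ly6c and Ly6e in many cells. Of 32 interferon-stimulated genes tested, 0 were called in either line, and in HP1γ KO 2 were higher and 7 lower at an unadjusted p under 0.05, 9 of 32 beside 11.9% of all genes, with a median log2 fold change of -0.14 beside 0.0005 for all genes. Gbp2, a guanylate-binding protein, had the smallest p (44.0 CPM in KO and 55.0 CPM in WT, log2 fold change -0.31, adjusted p = 0.188), while the antiviral Mx1 was 22.4 CPM in KO and 16.5 CPM in WT (0.45, adjusted p = 0.359). In HP1α KO the median of this list was -0.02, with 0 higher and 1 lower at that p. Of 16 interferon receptor and signalling genes, 0 were called, with medians of 0.05 in HP1α KO and -0.003 in HP1γ KO. Between the WT groups, an adjusted p under 0.05 was reached by Ifngr1, a chain of the interferon-γ receptor (224 CPM in the HP1α line and 354 CPM in the HP1γ line, log2 fold change -0.66, adjusted p = 0.0426), and by Gbp3 (-0.50, adjusted p = 0.0234), Ifit2 (0.44, adjusted p = 0.0303) and Usp18 (0.77, with an adjusted p just under the threshold). Of the 16 signalling genes 1 was lower in the HP1α line, and of the 32 stimulated genes 2 were higher and 1 lower. Neither share was greater than the 12.8% of all genes.

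Genes by which Ly6C-high and Ly6C-low memory cells are commonly told apart were the last list. Of 21 tested, 0 were called in either line, and the median log2 fold change was 0.04 in HP1α KO and -0.05 in HP1γ KO. At an unadjusted p under 0.05 stood 0 with higher and 2 with lower values in HP1γ KO, a share no greater than the 11.9% of all genes. These were Eomes, a T-box factor of effector cells (17.4 CPM in KO and 26.0 CPM in WT, log2 fold change -0.57, adjusted p = 0.332), and Klrg1, a receptor of effector cells (8.73 and 12.8 CPM, -0.55, adjusted p = 0.384). Between the WT groups, 3 of the 21 passed the adjusted p alone, a share near the 12.8% of all genes, all lower in the HP1α line. They were S1pr1, the receptor for exit from lymphoid organs (545 and 912 CPM, log2 fold change -0.74, adjusted p = 0.00378), Eomes (16.2 and 26.0 CPM, -0.68, adjusted p = 0.00960) and Icos, a costimulatory receptor (361 and 505 CPM, -0.48, adjusted p = 0.0328). Median log2 fold changes between the WT groups were -0.16 for the family, 0.10 for anchor synthesis, -0.17 for other anchored proteins, -0.15 for interferon signalling, 0.12 for interferon-stimulated genes and 0.002 for this list, beside 0.02 for all genes.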

How the data were processed

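RNA-Seq was analysed from 16 samples of splenic memory CD4+ T cells, grouped by the submitters' titles. A treatment label on transferred cells does not match the study's methods and was not used. Reads had been trimmed (Trim Galore) and aligned to GRCm39 (STAR) by the authors, who deposited Salmon's estimated counts per gene without normalization, of which 11.6% are not whole. The deposited TPM are scaled by transcript length by the authors and keep no depth.

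Estimated counts were rounded and compared in edgeR 4.0.16 under R 4.3.3 (TMM factors, a filterByExpr minimum count of 10, quasi-likelihood test, Benjamini-Hochberg adjustment over all genes). All 5 genes passed the filter in each comparison. CPM use TMM factors over the 16 samples, and log2 CPM a prior count of 2. SE are the log2 fold change divided by the square root of the quasi-likelihood F. Correlations used 1e+05 permutations within groups. Alternatives were DESeq2 1.42.0, limma 3.58.1 on log2(TPM + 1) and log2(TPM + 0.1), RLE size factors, other filters, all 16 samples in one fit, summed Ly6c paralogs, the replicate block and omission of each sample. The tests were checked on simulated counts with the same dispersion for all genes and changes larger than any seen in the members. The check therefore does not show how well changes of the members' size would be found. Among the 24 pairs of replicates the smallest chi-square per gene was 10.4, above sampling noise. Coordinates, transcripts and sequences come from a GENCODE annotation of GRCm39, the build of the files, in another release than the authors used.

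The members and gene lists were chosen with earlier results of these data known. The genes named are the members, Cbx5, Cbx3, family genes averaging 1 TPM or more, genes of the lists called or with one of the 3 smallest p in a comparison, and the 3 genes most like each member. Cell type markers were listed with the groups, and markers named singly were picked from those lists after their values were seen, as was the Ly6c ratio. Lists of regulatory and CD8 T cell, NK cell, endothelial and erythroid markers were also measured, and 1 further marker list is not reported here.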

Additional observations from a re-analysis of the deposited data

Results flagged for a closer look

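Ly6d in HP1γ KO replicate 4, at 51.5 CPM, was far above the other 3 samples of its group, of which the nearest was 16.7 CPM. It was the only sample of the 20 gene and group combinations tested that stood apart from its group in this way, and chance alone is expected to mark about 1 in 20. The same sample had the highest Siglech (109 TPM) of all 16. Whether plasmacytoid dendritic cells account for the value was not tested.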

How the results depend on the processing

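Over 391 alternative log2 fold changes of the members, 386 kept their direction and their side of the threshold, 4 changed sign and 1 passed the threshold. The last was Ly6d between the WT groups (-1.36 without HP1γ WT replicate 4, with a range of -1.36 to -0.59 over omissions), which takes the number of members called there from 0 to 1 (range 0 to 1). Over omissions Ly6c2 ranged from -0.0375 to 0.31 in HP1γ KO against WT (negative without HP1γ KO replicate 1, -0.0375, or HP1γ WT replicate 4, -0.0029) and from -0.0091 to 0.33 in the interaction (-0.0091 without HP1γ WT replicate 2), and Ly6d from -1.05 to 0.18 in the interaction (0.18 without HP1γ KO replicate 4). The Ly6c ratio, an added measure, kept its direction on estimated counts (0.69 on the log2 scale in HP1γ KO) and in every omission (0.59 to 0.86). Without removal of group means, Pearson's r changed sign for Ly6a with Ly6c1 (0.47), Ly6a with Ly6c2 (-0.0145), Ly6a with Ly6d (-0.16), Ly6c1 with Ly6d (-0.54), Ly6c1 with Ly6e (0.26) and Ly6d with Ly6e (-0.0363), and on log2(TPM + 1) for Ly6a with Ly6c1 (0.22). The cause of these changes was not tested.

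Samples with the same replicate number share only the number. The correlation of their deviations ranged from 0.081 to 0.271 in the HP1α line, with 4 of 8 samples closest to their own number, from -0.007 to 0.186 in the HP1γ line (2 of 8) and from -0.195 to -0.095 between the WT groups (0 of 8). With the replicate block no member was called (Ly6a -0.42, adjusted p = 0.146 by edgeR, in HP1γ KO), and the genes called were 0 in HP1α KO, 38 in HP1γ KO against 35 without it, 125 between the WT groups against 282, and 10 in the interaction against 5. In the same order DESeq2 called 2, 97, 339 and 38 genes. Limma on log2(TPM + 1) called 4, 11, 94 and 6, and on log2(TPM + 0.1) 6, 20, 194 and 4. Without a filter 1, 47, 325 and 11 genes were called, and with at least 10 counts in every sample 0, 18, 223 and 3. Omission of 1 sample gave 0 to 3, 23 to 32, 122 to 343 and 5 to 9 genes. Depth was least for Ly6c1, with 155.501 to 432.568 estimated counts per sample, and Ly6d, with 163 to 2007.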

Other observations

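The erythroid genes Hba-a1, Hba-a2, Hbb-bs and Hbb-bt summed to between 56.1 and 4190 TPM per sample, with medians of 158 TPM in HP1α WT, 343 TPM in HP1α KO, 869 TPM in HP1γ WT and 3137 TPM in HP1γ KO. Pecam1, which T cells also express, was 56.3 to 75.8 TPM, whereas the endothelial genes Emcn and Kdr stayed at or below 0.223 and 0.726 TPM and Cdh5 ranged from 0.329 to 3.48 TPM, highest in HP1γ KO replicate 4. Endothelial cells are a further known source of Ly6a and Ly6c1. Regulatory T cell markers (Foxp3, Il2ra, Ikzf2 and Ctla4) summed to 357 to 683 TPM per sample, CD8 T cell markers (Cd8a and Cd8b1) to 5.11 to 18.05 TPM and NK cell markers (Ncr1, Klrb1c and Klra8) to 22.9 to 48.8 TPM. No test was made on these values.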
